A study of Macaca mulatta with 18 samples.

Results

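Mitochondrial ribosomal protein genes were taken as all genes whose symbol is MRPL or MRPS followed by a number and at most 1 letter. The array carried 110 probes with such a symbol among 47323 probes in all, and they stood for 76 genes among 20046 gene symbols. The MRPL prefix marks the large subunit (48 genes, 73 probes) and the MRPS prefix the small subunit (28 genes, 37 probes). Vastus lateralis, a thigh muscle, was biopsied from 18 male rhesus monkeys (Macaca mulatta) kept on a standard diet. The 6 young animals had a mean age of 6.00 ± 0.00 years, the 6 middle-aged animals 16.48 ± 0.31 years and the 6 old animals 26.83 ± 0.22 years (SEM). Each animal had 1 array, so n = 6 an age throughout. The array was the Sentrix Human HT-12 BeadChip, whose probes were designed on human transcripts, so the brightness of a probe also depends on its match to the monkey sequence.

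The mitochondrial ribosome is built inside the organelle from ribosomal RNA encoded by mitochondrial DNA and from proteins encoded in the nucleus, made in the cytosol and imported. It translates the small set of mitochondrial mRNAs, all of which code for subunits of the respiratory chain complexes and of ATP synthase. The small subunit binds the mRNA and decodes it, and the large subunit forms the peptide bond and is held at the inner membrane, where its products are inserted. Many of its proteins descend from bacterial ribosomal proteins, and others are found only in mitochondria. Inherited defects in several of them cause combined deficiencies of oxidative phosphorylation (OXPHOS).

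Transcripts of this family were widely detected in monkey muscle. A probe was kept when its detection p, a comparison with the negative control probes of the same array, was under 0.05 on at least 6 arrays. Of the 110 probes, 78 (70.9%) met this rule, against 34.8% of all 30113 probes with a single symbol. They gave 66 testable genes of 76 (86.8%, against 42.8% of all genes), with 41 in the large and 25 in the small subunit. Of these, 52 were detected on all 18 arrays and 14 on fewer. The 10 genes that could not be tested were MRPL9, MRPL15, MRPL19, MRPL40, MRPL48, MRPL49, MRPL52, MRPS7, MRPS14 and MRPS18C, whose probes were detected on 0 to 4 arrays at intensities of 44 to 135. Without the filter, none of these 10 was called by limma, and their adjusted p ranged from 0.471 (MRPL49, old against middle-aged) to 0.999.

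Levels are given as log2 values relative to the mean of all probes on the array. They are Z scores of the natural log intensity put back on a log2 scale through the factor 1.19, which is what the SD of log2 intensity averaged. Single arrays had SDs between 1.03 (middle-aged replicate 6) and 1.27 (old replicate 5). No middle-aged array was above 1.19, whereas the highest young array was at 1.25. A difference of levels equals a log2 fold change only between arrays of the same SD. Division by a low SD raises the levels of bright probes. Log2 fold changes and fold values below are differences on this scale. Levels of different genes cannot be set against each other on this scale, since probes differ in brightness. Median intensity of an array ran from 71 to 97, and 24.5 to 30.5% of probes were detected. All 11 tested muscle markers, among them the skeletal actin gene ACTA1 and the muscle creatine kinase gene CKM, were detected on all 18 arrays. In bulk muscle, fewer cells of a type and less RNA per cell cannot be told apart.

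Young replicate 6 stood apart from the other young animals. Its array correlated with the rest at a mean of 0.931. Relative to the mean of all 18 animals, fibroblast and matrix genes (9 tested of 11) averaged 1.61 in this animal, and the remaining young animals lay between -0.47 and 0.55. For macrophage markers (5 tested of 6) the values were 1.06 and -0.61 to 0.43, and for muscle markers -0.84 and -0.48 to 0.45. Endothelial markers (6 tested of 7) averaged 0.83 in this animal and -0.47 to 0.16 in the remaining young animals, adipocyte markers (5 tested of 7) 0.37 and -0.27 to -0.019, and nuclear OXPHOS genes (44 tested of 77) -0.67 and -0.16 to 0.30. Red cell markers (4 tested of 6) moved with age instead. Their averages lay between -1.58 and -0.84 in young, between -1.15 and 0.91 in middle-aged and between -0.89 and 3.88 in old animals. The part of these cell types in the values below was not tested, and results that rest on young replicate 6 are given with and without it.

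No mitochondrial ribosomal protein gene passed the test between old and young muscle. When limma was fitted to the 3 ages and p was adjusted by Benjamini-Hochberg over 8589 genes, 0 of 66 members were called, against a background of 0.0931% of all genes, and the lowest adjusted p among the members was 0.155. At an unadjusted p under 0.05, 2 members were higher and 6 lower in old muscle, which is 12.1% of the members. Of all genes, 11% met this rule, 5.27% higher and 5.69% lower. The log2 fold changes were centred near 0, with 33 members above and 33 below, a median of -0.0054 and a middle range from -0.15 to 0.092 (lower and upper quartile). The median over all genes was -0.007. For 56 of the 66 members (84.8%, against 80.5% of all genes) the 95% interval lay within a 1.5-fold change in either direction, a log2 value of 0.585. For the other 10 members the interval reached beyond 1.5-fold. The 66 include the 14 members detected on fewer than 18 arrays. Near the detection floor, background can flatten differences between animals. A narrow interval of such a member, here and in the comparisons below, is therefore no evidence of a small change.

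Old and middle-aged muscle gave the same picture. Limma called 0 of 66 members, against 0.652% of all genes, and the lowest adjusted p was 0.0619. In this comparison 1 member was higher and 4 were lower at an unadjusted p under 0.05 (7.58%, against 16.5% of all genes, 9.24% higher and 7.22% lower). The median was 0.0057, with 34 members above and 32 below 0, and the median over all genes was 0.023. The interval lay within 1.5-fold for 51 members. Between middle-aged and young muscle limma called 0 of 66 members, against 0.0233% of all genes, with a lowest adjusted p of 0.308. Here 2 members were higher and 4 lower at an unadjusted p under 0.05 (9.09%, against 11.1% of all genes, 4.2% higher and 6.9% lower), the median was -0.025 with 28 members above and 38 below 0, and the interval lay within 1.5-fold for 57 members. The 3 comparisons share their animals, so they are not independent of each other. The rule of the methods for a changed gene, a p under 0.05 with an absolute Z ratio above 1.5 and a mean Z score above 0, called 4 members in each comparison. These were MRPL32, MRPL36, MRPS28 (lower) and MRPL54 (higher) between old and young muscle, MRPL32, MRPS17, MRPS28 (lower) and MRPS11 (higher) between old and middle-aged muscle, and MRPS10, MRPS16 (lower) and MRPL33, MRPL38 (higher) between middle-aged and young muscle. They were among 384 genes (4.47% of all genes) between old and young, 493 (5.74%) between old and middle-aged and 405 (4.72%) between middle-aged and young muscle.

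**Figure D1:**
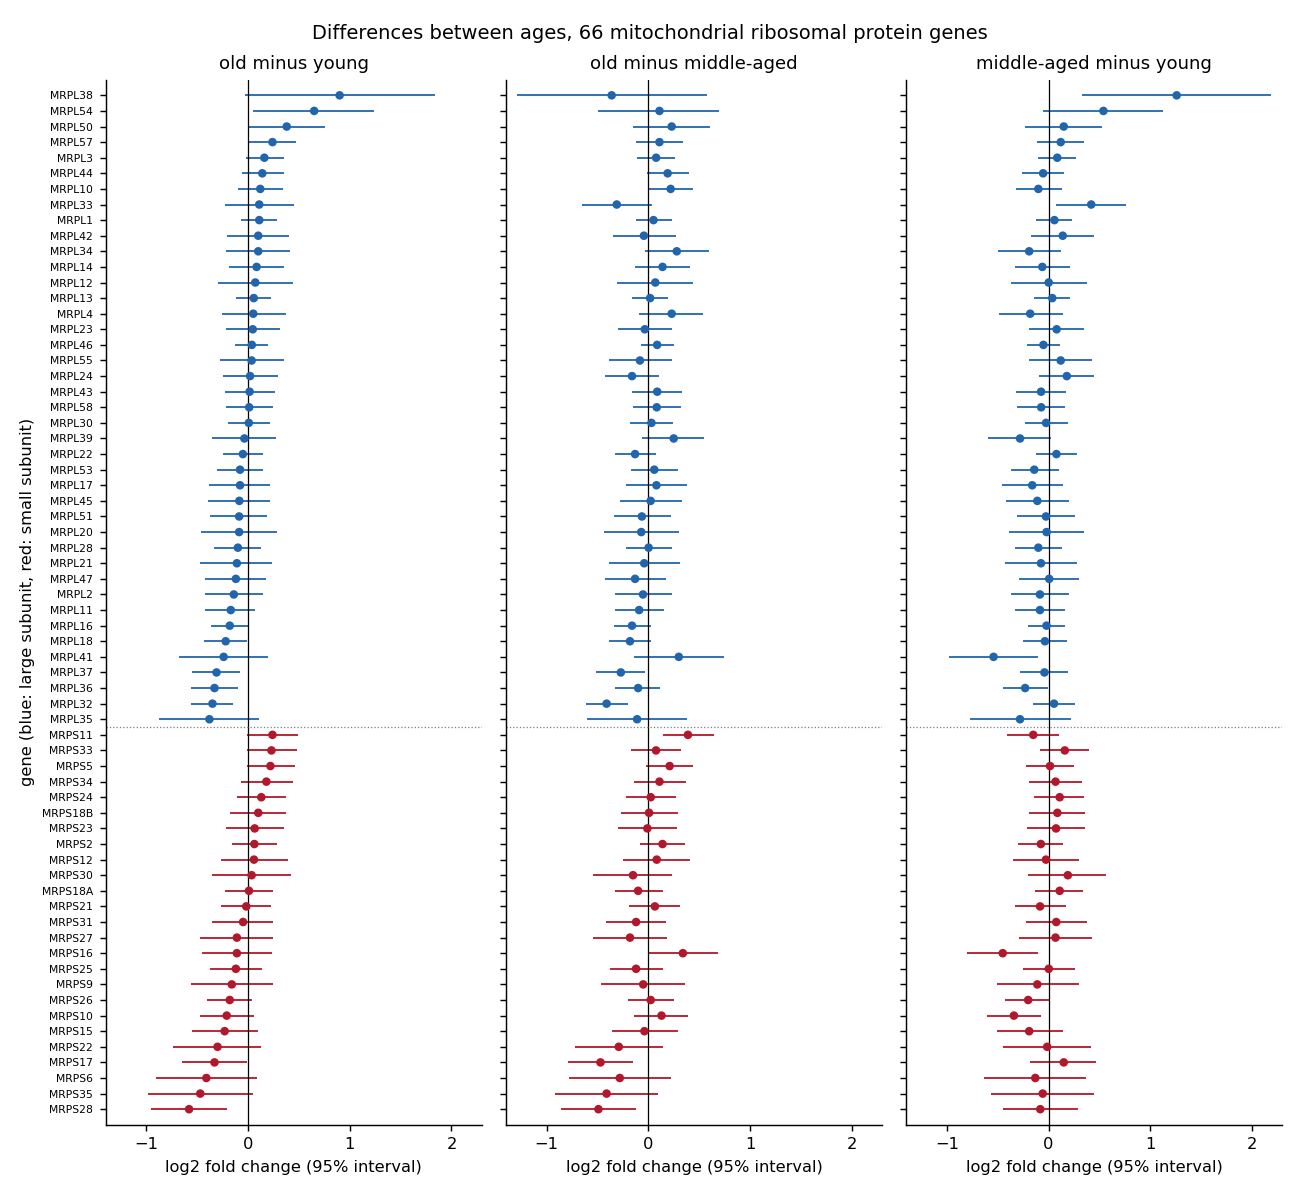
Log2 fold change (horizontal axis) of each of 66 mitochondrial ribosomal protein genes in 3 comparisons of ages, with the 95% interval from limma as a line, for large subunit (blue) and small subunit genes (red), each block ordered by old minus young. Points lie on both sides of 0 in every panel, and MRPL38 has the widest intervals, from 0.33 to 2.19 between middle-aged and young muscle.

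With all 18 animals, large and small subunit genes had medians near 0 in every comparison. Between old and young muscle the median log2 fold change was 0.011 over 41 large subunit genes (22 above and 19 below 0) and -0.049 over 25 small subunit genes (11 above and 14 below). Between old and middle-aged muscle the medians were 0.018 and -0.009, and between middle-aged and young muscle they were -0.035 and -0.013. With MRPS18A and MRPS30 counted in the large subunit, where structures of the ribosome place them, the medians between old and young muscle were 0.011 (large) and -0.11 (small). By prefix and without young replicate 6, the medians between middle-aged and young muscle were -0.076 (large) and -0.12 (small). To compare the subunits within an animal, each gene's level was set against its mean over the 18 animals and averaged over a subunit. The large subunit score lay between -0.26 and 0.20 in young, between -0.15 and 0.14 in middle-aged and between -0.082 and 0.15 in old animals. The small subunit score lay between -0.30 and 0.22, -0.13 and 0.12, and -0.23 and 0.18. The 3 ages overlapped in both scores, and in both the lowest animal was young replicate 6.

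The difference of the scores, large minus small, averaged -0.041 ± 0.026 in young, -0.0011 ± 0.016 in middle-aged and 0.042 ± 0.028 in old animals (SEM, n = 6). It was above 0 in 1 of 6 young, 2 of 6 middle-aged and 4 of 6 old animals, and the ages overlapped. Without young replicate 6, the difference was -0.13 to -0.01 in young animals and below 0 in all 5. No test was made on this score, because it runs over genes chosen with earlier results of these data known. Assigning MRPS18A and MRPS30 to the large subunit gave -0.051 ± 0.03, 0.011 ± 0.022 and 0.041 ± 0.022.

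**Figure D2:**
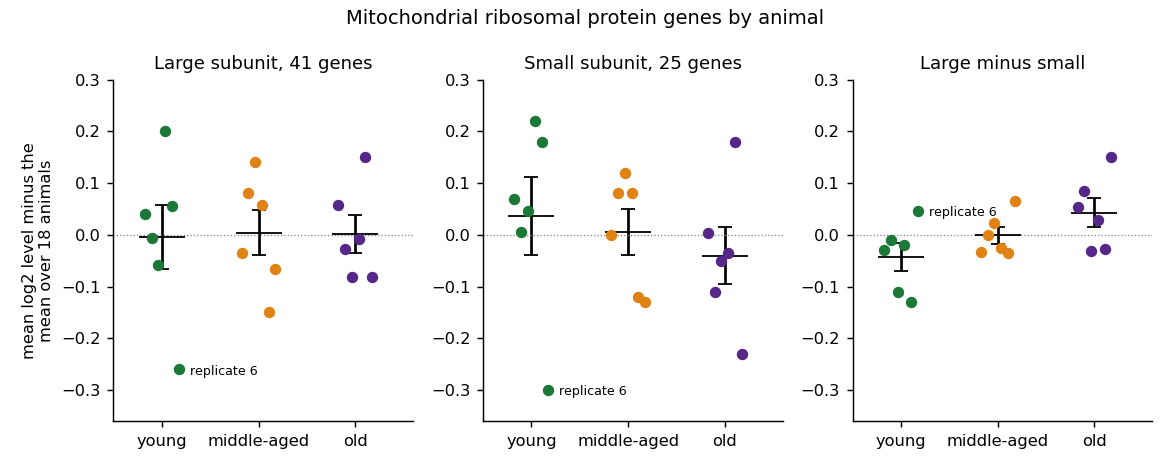
Score of each animal (points; vertical axis in log2 units relative to the mean over 18 animals) for 41 large and 25 small subunit genes and for their difference, by age, with mean and SEM in black. The ages overlap in all 3 panels, and young replicate 6 is the lowest point of both subunit scores at -0.26 and -0.30.

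Of the large subunit genes, MRPL32 came closest to the threshold. It encodes a zinc-binding protein that, as shown in yeast and mouse, is matured by the m-AAA protease before it joins the large subunit. Its lowest, median and highest levels were 3.51, 3.65 and 4.04 in young, 3.61, 3.81 and 3.89 in middle-aged and 3.23, 3.36 and 3.53 in old animals. On this scale every old animal lay below every middle-aged animal, while old and young animals overlapped by 1 young animal, replicate 6. In intensity before scaling, middle-aged replicate 6 was at 914, below the old animals at 1004 to 1578. MRPL32 was the only member of the 66 without overlap between old and middle-aged muscle (1.06% of all genes were without overlap in this direction). In the higher direction 0 members were, against 0.687% of all genes. In the other comparisons 0 members were without overlap, against 0.349% of all genes higher and 0.512% lower between old and young, and 0.221% higher and 0.594% lower between middle-aged and young muscle. The log2 fold change was -0.41 between old and middle-aged muscle, with a standard error of 0.10 and a 95% interval from -0.61 to -0.20, and limma gave an adjusted p of 0.0619. It was -0.35 between old and young muscle (standard error 0.10, limma adjusted p = 0.155) and 0.054 between middle-aged and young muscle.

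The call on MRPL32 turned on the processing. Quantile normalization gave -0.41 with a limma adjusted p of 0.049 between old and middle-aged muscle, where 0.605% of all genes were called lower. The test of the methods gave an adjusted p of 0.0359 for MRPL32 in this comparison and called 0.442% of all genes lower. Centring each array on its median without dividing by its SD gave -0.13 with an adjusted p of 0.549. Under that scaling the median of all genes stood at 0.13 between old and middle-aged muscle (0.023 before), at -0.14 between middle-aged and young muscle (-0.027 before) and at -0.017 between old and young muscle (-0.007 before), shifts of 0.10, -0.11 and -0.0098. Between old and young muscle MRPL32 stayed at -0.35 under this scaling.

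MRPL37 and MRPL36 were also lower in old than in young muscle at an unadjusted p under 0.05. MRPL37 is one of the large subunit proteins with no bacterial counterpart. Its lowest, median and highest levels were 4.31, 4.85 and 5.06 in young, 4.53, 4.81 and 4.90 in middle-aged and 4.24, 4.49 and 4.61 in old animals. Young replicate 6, at 4.31, was the only young animal inside the range of the old animals. The log2 fold change was -0.31 (standard error 0.11, limma adjusted p = 0.284) against young and -0.27 against middle-aged muscle (adjusted p = 0.235), and the latter became 0.064 under median centring. MRPL36, the counterpart of a very small bacterial protein, was at 2.83, 2.94 and 3.29 in young, 2.52, 2.82 and 2.94 in middle-aged and 2.44, 2.57 and 3.04 in old animals. All 3 ages overlapped, and old against young muscle gave -0.33 (standard error 0.11, limma adjusted p = 0.221). MRPL18, of the central protuberance, completed the set of lower large subunit genes with a log2 fold change of -0.22 (standard error 0.10, limma adjusted p = 0.438). A second MRPL18 probe gave -0.11.

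Among the small subunit genes the largest difference between old and young muscle was that of MRPS28. Mutation of this gene in patients has been linked to a combined OXPHOS deficiency. Its levels were 2.40, 3.19 and 3.42 (lowest, median and highest) in young, 2.63, 3.01 and 3.29 in middle-aged and 2.05, 2.51 and 2.89 in old animals. The 5 young animals other than replicate 6 lay at 2.90 or above, beyond the highest old animal at 2.89. The log2 fold change was -0.58 between old and young muscle, 0.671-fold, with a standard error of 0.18 and a 95% interval from -0.95 to -0.21, and did not pass (limma adjusted p = 0.191). Against middle-aged muscle it was -0.49 (standard error 0.18, limma adjusted p = 0.172).

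MRPS17, whose bacterial counterpart binds ribosomal RNA early in assembly, was at 2.74, 3.22 and 3.81 in young, 3.13, 3.40 and 3.61 in middle-aged and 2.63, 2.84 and 3.41 in old animals. Old replicate 3, at 3.41, was the only old animal above the lowest middle-aged animal. The log2 fold change was -0.47 against middle-aged (standard error 0.15, limma adjusted p = 0.134) and -0.33 against young muscle (adjusted p = 0.444).

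MRPS11 went the other way. It encodes a protein of the platform of the small subunit, near the mRNA exit. Its levels were 2.12, 2.42 and 2.63 in young, 2.00, 2.22 and 2.47 in middle-aged and 2.36, 2.60 and 3.06 in old animals. Old and middle-aged animals overlapped between 2.36 and 2.47, and the log2 fold change was 0.39 (standard error 0.12, 95% interval from 0.14 to 0.65, limma adjusted p = 0.122). A second MRPS11 probe gave 0.36. Under median centring the first probe gave 0.58 with a limma adjusted p of 0.0415 (1.68% of all genes were called higher), on a scale where the median of all genes stood at 0.13, and old against young muscle stayed at 0.24 in both.

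**Figure D3:**
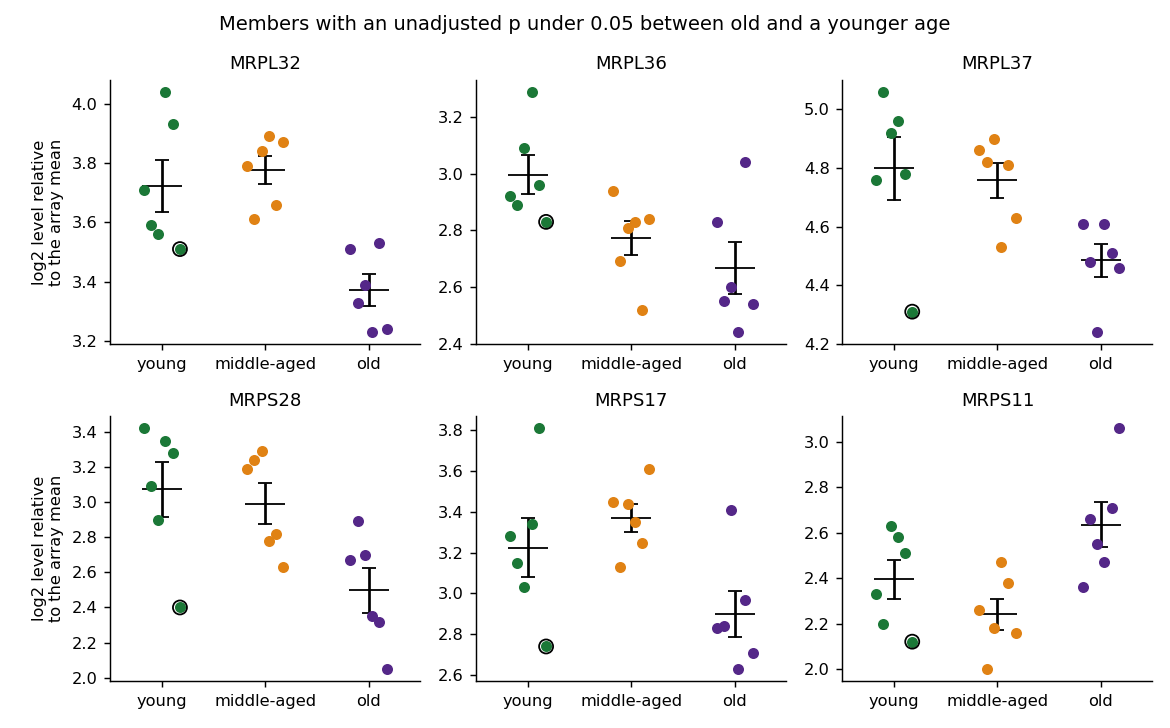
Level by animal (vertical axis, log2 relative to the array mean) for MRPL32, MRPL36, MRPL37, MRPS28, MRPS17 and MRPS11 in young, middle-aged and old muscle, with mean and SEM in black and young replicate 6 circled. On this scale the 6 old animals lie below all middle-aged animals for MRPL32 (at most 3.53 against at least 3.61), which was not so in intensity before scaling. For MRPL37 and MRPS28 the circled animal lies within the range of the old animals.

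Of the large subunit genes, 2 were higher in old than in young muscle at an unadjusted p under 0.05. MRPL54, which has no bacterial counterpart, was at 0.82, 1.34 and 2.03 in young, 0.68, 2.04 and 2.50 in middle-aged and 1.43, 1.99 and 2.64 in old animals, with overlap of all ages. Its log2 fold change between old and young muscle was 0.65 (standard error 0.28, 95% interval from 0.049 to 1.24, limma adjusted p = 0.415). For MRPL57 it was 0.24 (standard error 0.11, limma adjusted p = 0.438).

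The largest log2 fold change of the family was that of MRPL38, a central protuberance protein specific to mitochondria, and it came from a probe that was bright in some animals and dim in the rest. The probe was detected in 0 of 6 young, 4 of 6 middle-aged and 3 of 6 old animals, so the gene was tested only because of the older animals. A set of 6 animals, 4 middle-aged and 2 old, lay at levels of 1.17 to 1.74 (intensity 180 to 363), and the other 12 lay at -0.66 to 0.014 (intensity 68 to 106), with no animal between. Middle-aged minus young was 1.26 (standard error 0.45, limma adjusted p = 0.308) and old minus young 0.90 (adjusted p = 0.473). The group means thus lay between the levels that single animals had.

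MRPL33, a counterpart of a small bacterial protein, was the other member higher in middle-aged than in young muscle. It was at 5.34, 5.69 and 6.27 in young, 5.69, 6.27 and 6.44 in middle-aged and 5.53, 5.87 and 6.21 in old animals. Middle-aged minus young was 0.42 (standard error 0.16, limma adjusted p = 0.353) and 0.30 by a second probe. Under median centring it was 0.0069, where the median of all genes was -0.14. Middle-aged replicate 6, the array with the lowest SD, had the highest middle-aged level of MRPL33 (6.44) but the lowest middle-aged intensity (4244).

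At an unadjusted p under 0.05, 4 members had lower levels in middle-aged animals than in young ones. MRPS16, a gene mutated in a combined OXPHOS deficiency of patients, was at 2.23, 2.63 and 2.99 in young, 1.98, 2.23 and 2.30 in middle-aged and 2.10, 2.46 and 3.11 in old animals. The middle-aged animals were the most tightly grouped, and young replicate 6 at 2.23 was the only young animal within their range. The log2 fold change was -0.45 (standard error 0.17, limma adjusted p = 0.327). MRPS10, a protein of the head of the small subunit, was at 3.88, 4.48 and 4.54 in young and 3.72, 4.07 and 4.26 in middle-aged animals, with a log2 fold change of -0.34 (standard error 0.13, limma adjusted p = 0.328). Young replicate 6 was again the only young animal to overlap. Without it, the log2 fold changes were -0.53 for MRPS16 (limma adjusted p = 0.242) and -0.44 for MRPS10 (adjusted p = 0.136).

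MRPL41, a mitochondria-specific protein also described as an inducer of apoptosis, had a log2 fold change of -0.54 between middle-aged and young muscle (standard error 0.21, limma adjusted p = 0.347). Young replicate 5 was at 4.03, and the other 5 young animals were at 2.30 to 2.83, against 1.96 to 2.73 in middle-aged animals. Without replicate 5 the log2 fold change was -0.32. MRPL36, described above, was the remaining gene of the 4, at -0.23 (standard error 0.11, limma adjusted p = 0.45).

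**Figure D4:**
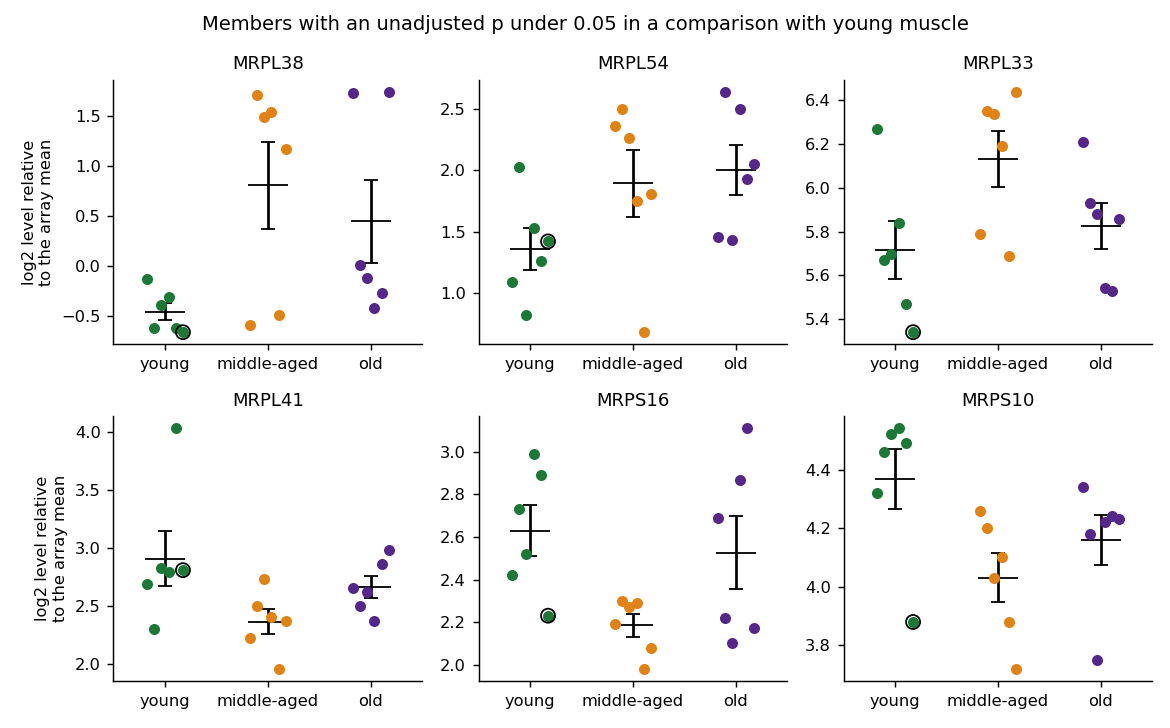
Level by animal (vertical axis, log2 relative to the array mean) for MRPL38, MRPL54, MRPL33, MRPL41, MRPS16 and MRPS10 in young, middle-aged and old muscle, with mean and SEM in black and young replicate 6 circled. MRPL38 shows 6 animals at 1.17 to 1.74 and 12 at 0.014 or below, and MRPL41 shows young replicate 5 at 4.03 above the other young animals.

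Of the members with the best known roles in translation, none was called between ages. Their 95% intervals still allow differences, as for MRPL12, from -0.30 to 0.44 between old and young muscle. MRPL12 forms the flexible stalk that recruits translation factors and has also been found to bind the mitochondrial RNA polymerase. Its log2 fold changes were 0.071, 0.069 and 0.0019 for old minus young, old minus middle-aged and middle-aged minus young, each with a standard error of 0.18. MRPL11, at the base of the stalk, gave -0.17, -0.09 and -0.084 (standard error 0.12), and MRPL3, of the core near the catalytic centre, gave 0.16, 0.077 and 0.086 (standard error 0.087) from a probe detected on 7 arrays. MRPL45, which anchors the ribosome at the inner membrane, gave -0.086, 0.023 and -0.11 (standard error 0.15).

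In the small subunit, MRPS12 is the counterpart of the bacterial protein that controls decoding accuracy. Its log2 fold changes were 0.058, 0.083 and -0.025 in the same order (standard error 0.16). MRPS2 gave 0.062, 0.14 and -0.075 (standard error 0.10), the RNA-binding protein MRPS27 -0.11, -0.18 and 0.069 (standard error 0.17), and MRPS15 -0.23, -0.038 and -0.19 (standard error 0.15). The lowest limma adjusted p among these 8 genes was 0.515 (MRPL3, old against young), and the ages overlapped in all 8. Their directions were not settled. MRPL3 kept its sign in every setting tried, but all settings use the same arrays. Its probe was detected in only 1 young, 2 middle-aged and 4 old animals. The sign of MRPL12, MRPS12, MRPS2, MRPL45, MRPS15 or MRPS27 changed in at least 1 comparison when a single animal was left out, and that of MRPL11 when another scaling or the mean of its probes was used.

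Different probes of 1 gene did not always move the same way. Of the 12 genes with more than 1 detected probe, the probes had the same sign in 9 genes between old and young, in 7 between old and middle-aged and in 9 between middle-aged and young muscle. The MRPL11 probes gave -0.17 and 0.16 between old and young muscle, and the MRPL10 probes gave 0.22 and -0.12 between old and middle-aged muscle. Each of these differences had a limma p above 0.05. MRPL21 and MRPL43, in contrast, had probes that gave similar values, -0.11 and -0.16 for MRPL21 and 0.015 and 0.016 for MRPL43 between old and young muscle.

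Leaving out young replicate 6 moved the family downwards in the comparisons with young muscle. Old minus young then had 20 members above and 46 below 0, with a median of -0.067, against 33, 33 and -0.0054 with all animals. The median over all genes was 0.0052 without this animal. Both subunits shared the shift, with medians of -0.061 over the large and -0.10 over the small subunit genes. Limma called 2 members lower, against 0.303% of all genes. These were MRPS28, which fell by 0.71 on the log2 scale (standard error 0.16, adjusted p = 0.0492), and MRPL37, which fell by 0.41 (standard error 0.092, adjusted p = 0.0497). At an unadjusted p under 0.05, 4 members were higher and 14 lower (27.3%, against 13.1% of all genes, 5.96% higher and 7.14% lower). Old and young animals then had no overlap for MRPL32, MRPL37 and MRPS28, all lower in old muscle, as was so for 1.28% of all genes. This follows from the omission, since replicate 6 was the only young animal that overlapped the old ones for these genes. It was also the lowest young animal for MRPL37 and MRPS28, so leaving it out raises the young means behind the calls.

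Middle-aged minus young had a median of -0.083 without young replicate 6 (22 above and 44 below 0, with 0 called by limma, against 0.0233% of all genes), and the median was -0.014 over all genes. Old minus middle-aged does not involve this animal and kept its median of 0.0057. With 15 animals, leaving out old replicates 1 and 2 as well, old minus young had a median of -0.064 (26 above and 40 below) and limma called MRPS28 alone of the members, which fell by 0.85 (standard error 0.16, adjusted p = 0.0433). MRPL37 was at -0.44 with an adjusted p of 0.0611. In this fit 0.221% of all genes were called lower. The arrays of old replicates 1 and 2 did not stand apart, with mean correlations to the rest of 0.965 and 0.962. For MRPS28 these animals were at 2.67 and 2.89, and the other old animals at 2.05 to 2.70. Leaving them out thus lowers the old mean of MRPS28.

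**Figure D5:**
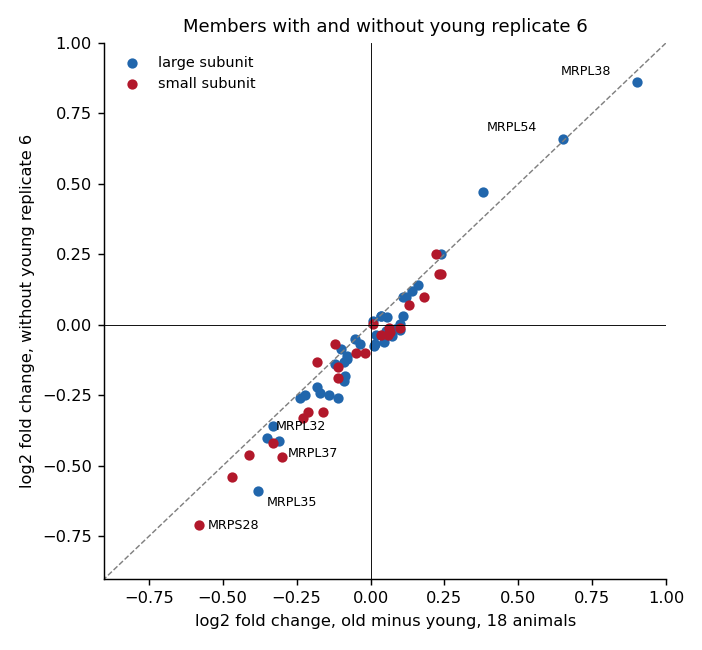
Log2 fold change between old and young muscle of 66 members with all 18 animals (horizontal axis) and without young replicate 6 (vertical axis), for large subunit (blue) and small subunit genes (red); the dashed line marks equal values. Most points lie below the line, and MRPS28 moves from -0.58 to -0.71 and MRPL37 from -0.31 to -0.41.

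Members varied together within an age, though loosely. Over deviations from the age means in 18 animals, the median correlation of a pair of members was 0.25 (2145 pairs, 78.9% above 0), and it was 0.18 without young replicate 6. Pairs within the large subunit had a median of 0.22, pairs within the small subunit 0.27, and pairs across the subunits 0.27. Members paired with all tested genes had a median of -0.0071. Pairs of a member with a nuclear OXPHOS gene had a median of 0.31 (0.17 without young replicate 6), pairs of a member with a cytosolic ribosomal protein gene 0.031, and pairs of OXPHOS genes 0.63 (0.41). All pairs share the same 18 arrays and their scaling, so these values are a description.

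The members that followed the mean of the other members most closely were MRPL35 (r = 0.89), MRPS22 (0.87) and MRPL21 (0.87) over 18 animals, and those that did so least were MRPL28 (-0.14), MRPL57 (-0.13) and MRPS25 (-0.12). Young replicate 6 was the lowest young animal for both MRPL35 (3.59, others 4.60 to 5.29) and MRPS22 (2.84, others 3.53 to 4.08). The within-age SD of a member had a median of 0.232, against 0.216 over all genes. Differences between ages made up a median of 12.8% of a member's variance, against 13.9% over all genes.

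Members with a bacterial counterpart and members specific to mitochondria had similar medians. The 41 genes with a counterpart had median log2 fold changes of -0.018, -0.034 and -0.035 for old minus young, old minus middle-aged and middle-aged minus young, and the 25 without had 0.011, 0.024 and -0.013. Without young replicate 6, old minus young became -0.061 and -0.068, and middle-aged minus young -0.11 and -0.053. The ribosomal proteins that carry another kind of symbol were represented by DAP3, a GTP-binding protein of the small subunit, and CHCHD1, also of the small subunit. Both lay between -0.16 and 0.13 in all 3 comparisons, with 0 called.

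The factors that act with the ribosome gave 0 calls by limma in all 3 comparisons. Of 12 translation factors tested, 10 were below 0 between old and young muscle, with a median of -0.088, and without young replicate 6 again 10 were, with a median of -0.19. TACO1, which activates the translation of a cytochrome c oxidase subunit, was at 2.42, 3.07 and 3.43 in young, 2.53, 2.96 and 3.23 in middle-aged and 2.21, 2.49 and 2.86 in old animals, with overlap of all ages. Its log2 fold change between old and young muscle was -0.50 (standard error 0.16, limma adjusted p = 0.199). Without young replicate 6 TACO1 fell by 0.62 (limma adjusted p = 0.0492), in a fit where 0.303% of all genes were called lower. Leaving out this animal raises the young mean behind that call. The elongation factor gene TUFM had a log2 fold change of 0.31 in the same comparison (standard error 0.14, limma adjusted p = 0.421).

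In a list of 12 tested genes drawn up for assembly of the ribosome, the median was -0.049 between old and young and 0.037 between old and middle-aged muscle. The list includes LETM1 and TMEM70, which are not established assembly genes of this ribosome. They gave 0.19 and 0.11 between old and young muscle, where 6 of the 12 genes were above 0 and 6 below. TFB1M encodes the methyltransferase that modifies the RNA of the small subunit. It was at 1.74, 2.13 and 2.45 in young, 1.94, 2.15 and 2.51 in middle-aged and 1.42, 1.77 and 1.93 in old animals. On this scale each old animal lay below each middle-aged animal, as was so for 1.06% of all genes, while old and young animals overlapped. For TFB1M the separation was examined on this scale only. Under median centring without division by the SD, the median of all genes shifted by 0.10 between old and middle-aged muscle. The log2 fold change was -0.46 between old and middle-aged (standard error 0.12, limma adjusted p = 0.0821) and -0.41 between old and young muscle (adjusted p = 0.19). MALSU1, which binds the large subunit during its assembly, gave -0.35 between old and young muscle (standard error 0.14, limma adjusted p = 0.354).

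With all 18 animals, the mitochondrial ribosomal proteins had medians nearer to 0 than the nuclear OXPHOS genes in the comparisons with middle-aged muscle. Over 44 tested OXPHOS genes the median was -0.054 between old and young (28 below 0), -0.20 between old and middle-aged (37 below 0) and 0.13 between middle-aged and young muscle (8 below 0), with 0 called by limma in each. At an unadjusted p under 0.05, 1 OXPHOS gene was higher and 2 were lower between old and young (6.82%, against 11% of all genes), 5 were lower between old and middle-aged (11.4%, against 16.5%), and 2 were higher and 1 lower between middle-aged and young muscle (6.82%, against 11.1%). Without young replicate 6 these counts became 1 higher and 11 lower (27.3%, against 13.1% of all genes), 11 lower (25%, against 18%), and 1 higher and 3 lower (9.09%, against 12.2%). Old minus middle-aged does not involve this animal, so its fold changes stayed the same. There the count rose because the estimate of the spread shared by the 3 ages changed. Over 62 cytosolic ribosomal protein genes the medians were -0.13, -0.11 and 0.055, with 0 called. At an unadjusted p under 0.05, 1 of them was higher and 8 lower (14.5%), 14 were lower (22.6%), and 1 was higher and 2 lower (4.84%). Whether these lists differ from the mitochondrial ribosomal proteins was not tested. Division by the array SD moves bright probes most, and the OXPHOS genes had a median intensity of 1851. Under median centring without division by the SD, the median of all genes shifted by 0.10 between old and middle-aged muscle. Between middle-aged and young muscle it shifted by -0.11. The medians of the OXPHOS and cytosolic lists under that scaling are not given here, and the part of the scaling in them was not tested. Without young replicate 6 the OXPHOS median was -0.16 between old and young and -0.017 between middle-aged and young muscle, beside -0.067 and -0.083 for the mitochondrial ribosomal proteins.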

How the data were processed

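Vastus lateralis RNA of 18 male monkeys was isolated with Trizol, amplified, labelled and hybridised to 1 Sentrix Human HT-12 BeadChip an animal. The authors deposited the linear probe intensity read out with GenomeStudio 2011.1, not normalized, and whether a background was subtracted is not given in the sources used here. The deposited detection p-value compares a probe with negative controls. The authors also deposited Z scores of the natural log intensity, centred and divided by the SD within each array, and recomputed Z scores differed from these by at most 0.01843. Z scores times 1.19 went into a single limma model of the 3 ages (limma 3.58.1, R 4.3.3; Benjamini-Hochberg, threshold 0.05) over 8589 genes, each represented by its brightest single-symbol probe that was detected (p under 0.05) on 6 arrays or more. The fit was tested on simulated data. Summaries and plots used Python 3.11.15, pandas 2.3.3, numpy 2.4.6 and matplotlib 3.10.9. The number of arrays limits the precision, and the median standard error was 0.123.

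The members and the other gene lists were chosen with earlier results of these data known. Named members are, in each comparison, the 3 large and 3 small subunit genes with the smallest p in each direction, any called gene, genes whose probes differ in sign with an unadjusted p under 0.05, and 8 genes with known roles. From other lists, up to 2 genes a direction were named by smallest p. MRPL16, MRPL18, MRPL21, MRPL28, MRPL35, MRPL43, MRPS22 and MRPS25 were named after their values were seen. Alternatives were neqc (offset 16), quantile normalization, median centring without division by the SD, the authors' Z scores, no filter, a stricter detection p (0.01), averaging of the probes of a gene, array weights, a block for the replicate number, fits of 2 ages at a time, 15 animals, each animal left out, the t-test of the methods and subunits assigned by structure. No sequence or genome position was used.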

Additional observations from a re-analysis of the deposited data

Results flagged for a closer look

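Levels of 31 named members and 4 family scores were examined in each of the 3 ages, 105 groups of 6 animals in all, by Dixon's test for a single animal far from the others, and 8 groups were picked out. Chance alone picks out about 1 group in 20. MRPL41 in young replicate 5 was at 4.03, above 2.30 to 2.83 in the other young animals, and MRPS10 in young replicate 6 was at 3.88, below 4.32 to 4.54. In middle-aged replicate 6, MRPL45 was at 1.30, below 2.04 to 2.21, and MRPS15 was at 2.98, below 3.65 to 3.82. MRPS5 in middle-aged replicate 5 was at 0.23, below 0.54 to 0.70. In old animals, MRPS10 in replicate 3 was at 3.75, below 4.18 to 4.34, MRPL34 in replicate 5 was at 3.80, above 3.14 to 3.33, and MRPL10 in replicate 6 was at 1.26, below 1.35 to 1.39. Leaving out young replicate 5 changed MRPL41 between middle-aged and young muscle from -0.54 to -0.32, and leaving out middle-aged replicate 6 changed MRPL45 between middle-aged and young muscle from -0.11 to 0.029.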

How the results depend on the processing

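The number of members called and the medians were computed for 3 comparisons under each alternative, with 0 calls in each direction as the starting point. Member calls appeared under these settings. The t-test at the thresholds of the methods gave 1 higher and 3 lower between old and young, 1 and 3 between old and middle-aged, and 2 and 2 between middle-aged and young muscle, and after Benjamini-Hochberg 1 lower between old and middle-aged muscle (MRPL32, adjusted p = 0.0359, where 0.442% of all genes were lower). Quantile normalization gave 1 lower (MRPL32, -0.41, adjusted p = 0.049) and median centring 1 higher (MRPS11) between old and middle-aged muscle. The 15 animals gave 1 lower (MRPS28) between old and young muscle, where leaving out 1 animal gave 0 to 2 lower. The other settings gave 0 calls.

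Under median centring the medians between old and middle-aged muscle became 0.15 (all members), 0.15 (large) and 0.16 (small), beside 0.13 for all genes, and between middle-aged and young muscle -0.18 (all) and -0.21 (large), beside -0.14. The other medians stayed within 1 SD between animals, except the difference of the subunit medians. Middle-aged minus young, it was -0.022, and 0.043 with the 15 animals. Leaving out 1 animal moved it from -0.046 to 0.043 there, and from -0.012 (without old replicate 6) to 0.13 (without old replicate 4) between old and young muscle. The cause was not tested.

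Signs turned for these members in the comparisons named. The starting limma adjusted p between old and middle-aged muscle was 0.235 for MRPL37 and 0.353 for MRPL33, and for the others it was at least 0.665. Under median centring, old minus middle-aged became 0.10 for MRPL11, 0.12 for MRPL33, 0.064 for MRPL37 and 0.22 for MRPS15, and middle-aged minus young -0.15 for MRPL12, -0.10 for MRPS17, -0.10 for MRPS27, -0.0055 for MRPS30 and -0.042 for MRPS33. Array weights gave MRPL12 -0.025, -0.0034 and -0.021 (old minus young, old minus middle-aged, middle-aged minus young), MRPS12 -0.053 (old minus young) and MRPL45 -0.041 (old minus middle-aged). Neqc and quantile normalization gave MRPL45 -0.034 and -0.032 (old minus middle-aged) and MRPS12 0.056 and 0.051 (middle-aged minus young). The mean of probes gave MRPL11 0.043 and the 15 animals MRPL12 -0.11 (middle-aged minus young). With 1 animal left out, the ranges that crossed 0 were, between old and young muscle, -0.049 to 0.17 (MRPL12), -0.036 to 0.14 (MRPS12) and -0.012 to 0.11 (MRPS2). Between old and middle-aged muscle they were -0.051 to 0.14 (MRPL12), -0.12 to 0.084 (MRPL45), -0.0016 to 0.16 (MRPS12) and -0.17 to 0.036 (MRPS15). Between middle-aged and young muscle they were -0.11 to 0.10 (MRPL12), -0.20 to 0.029 (MRPL45), -0.12 to 0.06 (MRPS12) and -0.03 to 0.17 (MRPS27).

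Animals that share a replicate number were not paired, with correlations of their deviations from -0.259 to 0.22. With the replicate number as a block, limma called 0 members in each comparison, with medians of -0.0054, 0.0057 and -0.025, and 0, 6 and 0 of all genes, against 8, 56 and 2. Brightness left 10 members untested, and 14 tested members were detected on only some arrays. The 52 members detected on all arrays had medians of -0.05, -0.022 and -0.038 in the 3 comparisons.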
